A study of Mus musculus with 6 samples.

Results

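The genes described here encode the folding machinery of the endoplasmic reticulum (ER), the organelle where secreted and membrane proteins enter the secretory pathway, and the unfolded protein response that adjusts that machinery. They are a list of 33 genes by name, in 4 roles: 14 chaperones and folding enzymes, 8 genes of ER-associated degradation, 7 stress sensors, transducers and feedback genes, and 4 genes of protein translocation. All 33 had a probe set of their own among the 18193 genes measured, and none of the 33 had a mean level under the probe set median. The brightest probe set stood for each gene. RNA came from Ba/F3, a mouse pro-B cell line that needs interleukin-3 to grow. The cells carried a retroviral Tet-On construct in which doxycycline switches on the fusion of SPAG9, a scaffold protein, to the tyrosine kinase JAK2. Induced cultures (3 arrays) received 500 ng/ml doxycycline, uninduced cultures (3 arrays) carried the same construct without doxycycline, and RNA was taken after 48 hours. Doxycycline alone was not among the groups, so the drug and the fusion cannot be told apart.

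When unfolded proteins accumulate in the ER, the chaperone BiP (Hspa5) leaves 3 membrane sensors. IRE1 (Ern1) splices the RNA of the transcription factor XBP1, ATF6 is cut in the Golgi to release a transcription factor, and PERK (Eif2ak3) slows translation by phosphorylating eIF2-alpha. ATF6 and XBP1 raise the genes of chaperones and of ER-associated degradation, which returns misfolded proteins to the cytosol for the proteasome. Cells of the B lineage rely on this response when they become antibody-secreting cells.

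The promoters of these genes carry short elements through which the response acts. The elements are shown because they sort the members by a feature not taken from the values of these arrays. The ER stress response element (ERSE), which ATF6 binds with the factor NF-Y, is CCAAT, then 9 bases, then CCACG. ERSE-II is ATTGG, then 1 base, then CCACG. In RefSeq promoter windows of GRCm38.p6, from 250 bases before to 50 after the transcription start, 26 members had an entry, and both strands were searched. The members without an entry are Atf6, Derl1, Hyou1, Manf, Ppp1r15b, Sec11c and Sec61a1. ERSE letters stood in the windows of 9 of the 26 members, against 37 of 27025 genes (0.137%). ERSE-II letters stood in 2 of 26, against 12 of 27025 genes (0.0444%). Both counts over all genes include the members. The matches are printed 5′ to 3′ in the direction of the element, with the fixed letters in capitals and the free bases in lower case.
Hspa5 ERSE: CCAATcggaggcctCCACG
Hsp90b1 ERSE, distal: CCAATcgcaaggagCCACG
Hsp90b1 ERSE, proximal: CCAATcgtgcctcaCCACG
Pdia6 ERSE: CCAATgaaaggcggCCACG
Calr ERSE: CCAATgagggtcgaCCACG
Canx ERSE: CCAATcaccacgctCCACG
Dnajc3 ERSE: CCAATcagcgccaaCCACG
Creld2 ERSE: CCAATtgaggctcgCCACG
Syvn1 ERSE: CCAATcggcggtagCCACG
Derl3 ERSE: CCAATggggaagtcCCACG
Dnajb11 ERSE-II: ATTGGcCCACG
Herpud1 ERSE-II: ATTGGgCCACG

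The ERSE of Hspa5 lay 65 to 47 bases before the transcription start, those of Hsp90b1 212 to 194 and 107 to 89 bases before it, and that of Creld2 126 to 108 bases before it. The ERSE-II of Herpud1 lay 52 to 42 bases before the start, and that of Dnajb11 at transcribed bases 8 to 18. The whole windows of Hspa5 (chr2:34771840-34772139, plus strand) and Herpud1 (chr8:94386179-94386478, plus strand) follow, since these genes stood on opposite sides in the comparison below, with every match in capitals.
Hspa5 promoter: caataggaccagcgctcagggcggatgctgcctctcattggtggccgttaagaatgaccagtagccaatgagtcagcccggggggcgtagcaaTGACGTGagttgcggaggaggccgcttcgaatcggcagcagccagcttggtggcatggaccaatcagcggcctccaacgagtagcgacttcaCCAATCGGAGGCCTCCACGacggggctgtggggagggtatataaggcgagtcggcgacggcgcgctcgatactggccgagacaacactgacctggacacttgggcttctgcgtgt
Herpud1 promoter: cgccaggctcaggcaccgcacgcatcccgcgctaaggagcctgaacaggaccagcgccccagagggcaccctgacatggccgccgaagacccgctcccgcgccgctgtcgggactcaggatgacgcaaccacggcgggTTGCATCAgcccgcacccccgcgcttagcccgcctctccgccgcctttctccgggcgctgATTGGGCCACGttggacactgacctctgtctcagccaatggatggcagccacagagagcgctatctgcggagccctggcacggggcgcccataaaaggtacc
The first capital stretch of Hspa5 is the core of the unfolded protein response element, TGACGTG, which XBP1 binds; 2.22% of genes hold these letters in a window, and Hspa5 was the only one of the 26 members to do so. In Herpud1 the first capital stretch is a C/EBP-ATF element (TGATG, then 1 base, then AA, here on the opposite strand), of the kind that ATF4 binds with a C/EBP factor. It was present in 4.51% of genes and in no other of the 26 members. No match overlapped a match of another motif. A match describes the letters only, and a window without one says nothing about the factor.

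Signals ran on a linear scale, levels below are log2(signal + 16), and a log2 fold change is the difference of mean levels, induced minus uninduced, with its standard error (SE). The fold change understates changes of dim genes, and members' levels are not compared with each other. Median signals were 55.0 and 63.6 on the induced and uninduced arrays numbered 1, and 46.2 to 50.7 on the other 4. Since these 2 arrays stood apart, results are also given without them. The pan-leukocyte gene Ptprc (12.87 to 13.79) and the interleukin-3 receptor chains Csf2rb (13.10 to 14.41) and Il3ra (8.61 to 9.72) are given beside 17 genes not expected in these cells (median 5.35, 90th percentile 5.95), a rough guide to background since probe sets differ in response, of which Mbp alone reached 9.47 or more on every array. Of the pro-B markers, Cd79a, Ebf1, Rag1 and Kit had at most 5.84, 5.77, 4.65 and 5.85 on any array. Vpreb1 (4.68 to 6.34), Pax5 (5.32 to 7.13) and Igll1 (4.91 to 7.16) lay on both sides of that 90th percentile, and Cd79b reached 8.78. The plasma cell list (6 genes, median level 5.60) had summed signals of 227 to 252 in induced and 174 to 266 in uninduced cells. Of 7 macrophage and granulocyte markers 5 had a negative fold change. Summed signals of the 7 were 637 to 1215 in induced and 1047 to 3014 in uninduced cells. Every induced array lay below every uninduced one for Adgre1 (log2 fold change -2.18 ± 0.58), Csf1r (-1.23 ± 0.44) and Cd68 (-0.74 ± 0.20). This held for 13.4% of all genes. Lyz2, Itgam, Mpo and Elane overlapped between the groups. The part of these markers in the results was not tested. Jak2 (log2 fold change -0.54 ± 0.41) and Spag9 (-0.92 ± 0.33) were not higher in induced cells. No source used here says whether their probe sets read the fusion transcript, so they do not check the labels.

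The 33 genes did not move as one. Most chaperones and folding enzymes stood modestly higher in induced cells (12 of 14 above 0, counting Hsp90b1 at 0.00, median log2 fold change 0.34), beside 44.1% of all genes above 0. Of the 12, Hsp90b1 and Pdia6 turned below 0 without uninduced replicate 1, and the probe sets of Dnajc3 differed in sign. All 7 sensors, transducers and feedback genes were below 0 (median -0.46), beside 55.9% of all genes, although Ppp1r15b, at -0.04, turned above 0 in some alternatives. In ER-associated degradation 3 of 8 were above 0 (median -0.32), none of them settled. Edem1 and Derl2 were below 0 with another probe set, and Derl3 was dim. The 4 translocation genes had a median of 0.05. Over all 33 the median was 0.01, beside -0.06 over all 18193 genes. None of these differences passed an adjusted p of 0.05 in limma for a single gene: 0 of 33 were called, against 0.115% of all genes called higher and 0.0715% called lower. The smallest adjusted p of a member was 0.116. At an unadjusted p under 0.05 in limma 5 members were higher (15.2%, against 7.14% of all genes) and 8 lower (24.2%, against 10.3%). All 33 members lay at or above the median level, where such p-values were more frequent. With dimmer genes left out, 15 of 33 members and 3013 of 10693 genes had an unadjusted p under 0.05 in limma. In 7 members (21.2%) every induced array lay above every uninduced one, against 10.7% of all genes and 15.1% of those at or above the median level. In 8 members (24.2%) every induced array lay below, against 13.4% and 18.0%. With RNA from whole cultures, a change in the number of cells of one kind and a change of RNA per cell cannot be told apart.

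**Figure D1:**
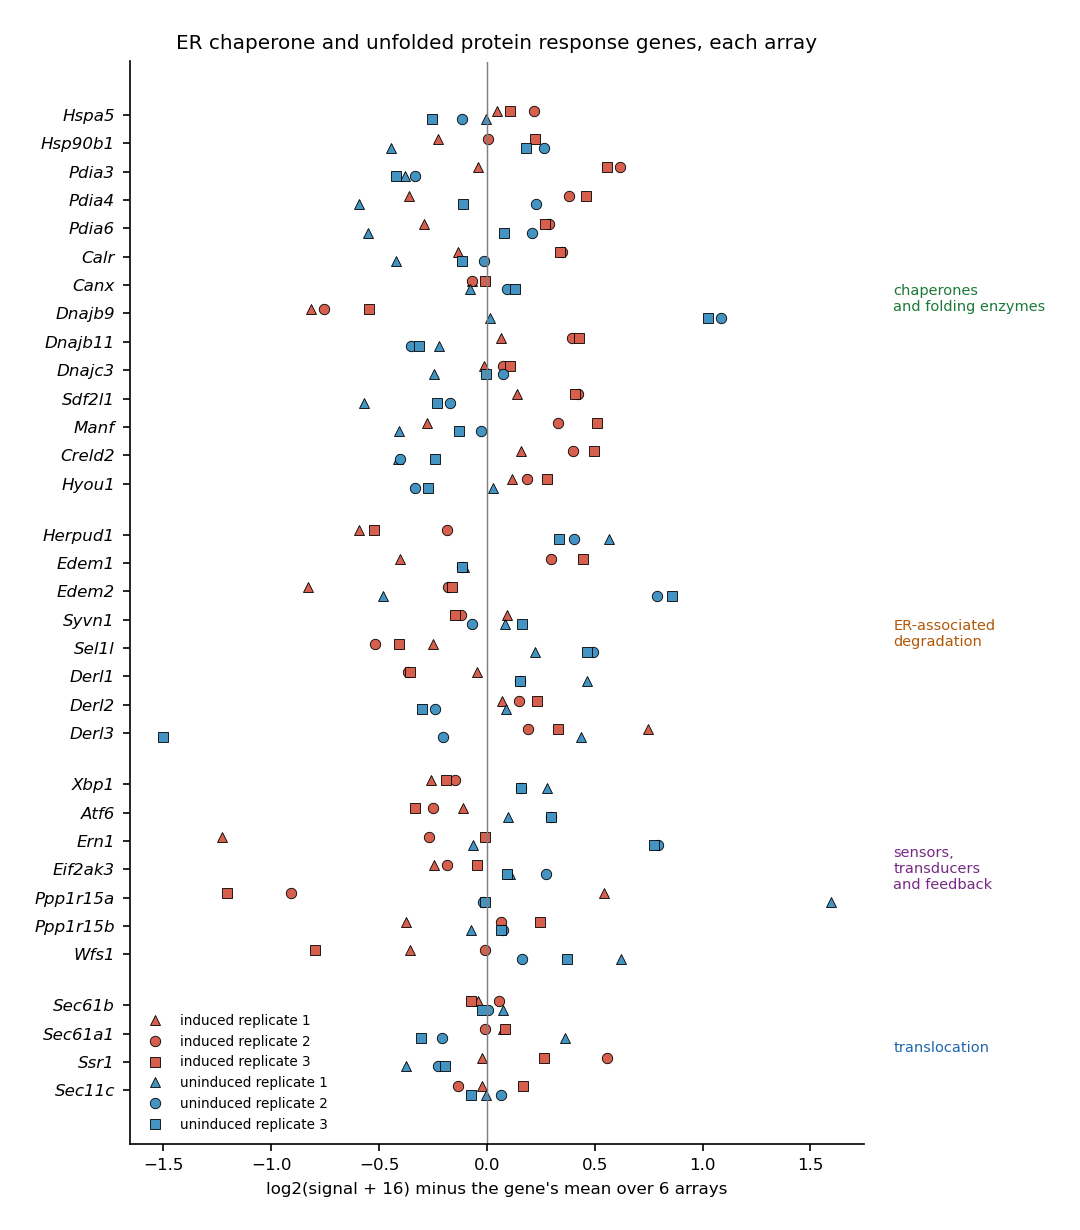
Level of each of the 33 genes on each of the 6 arrays, as log2(signal + 16) minus the gene's mean over the arrays (x axis), with genes grouped by role (y axis); red marks are induced, blue marks uninduced, and the shape gives the replicate number. The 3 red marks lie to the right of the blue ones in 7 genes and to the left in 8.

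Among the chaperones with positive values, Pdia3, Creld2, Sdf2l1 and Dnajb11 had the highest fold changes. Pdia3, a disulfide isomerase that works on glycoproteins held by calnexin and calreticulin, had signals of 8497, 13490 and 12917 in induced replicates 1, 2 and 3. In uninduced replicates 1, 2 and 3 they were 6742, 6980 and 6543. The groups did not overlap, and induced replicate 1 was the lowest of the induced arrays. The log2 fold change was 0.75 ± 0.22 (SE, n = 3 and 3), with an adjusted p of 0.18 in limma.

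Creld2, an ER-resident protein induced by ER stress, had the smallest p among members that stood higher. Its signals were 1362, 1614 and 1729 in induced and 913, 923 and 1031 in uninduced replicates 1 to 3, in that order. Every induced array was above every uninduced one, with a log2 fold change of 0.70 ± 0.17 and an adjusted p of 0.139 in limma. Sdf2l1, a partner of BiP's co-chaperones that slows protein aggregation, had signals of 3811, 4637 and 4593 against 2315, 3075 and 2948. Its log2 fold change was 0.65 ± 0.19, and its difference was similar in the arrays numbered 1 (0.72), 2 (0.59) and 3 (0.64). Dnajb11 (ERdj3), a J-domain protein that passes unfolded chains to BiP, had signals of 1786, 2257 and 2308 against 1461, 1333 and 1374. Its log2 fold change was 0.59 ± 0.17 (adjusted p of 0.175 in limma), with no overlap of the groups.

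Hspa5, which encodes BiP, had signals of 17085, 19209 and 17779 in induced and 16534, 15225 and 13825 in uninduced cells. The groups were apart but close, since induced replicate 1 exceeded uninduced replicate 1 by only 0.05 on the log2 scale. The log2 fold change was 0.25 ± 0.16, and 0.32 and 0.43 with its other 2 probe sets. Hyou1, a large HSP70-like protein that exchanges nucleotide on BiP, was also apart, at 0.39 ± 0.17. Its other probe sets gave 0.17 and 0.72.

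The remaining folding genes with positive values overlapped between the groups. They were Manf, a small secreted protein that binds BiP (0.38 ± 0.25), the lectin chaperone Calr (0.36 ± 0.21), the disulfide isomerases Pdia4 (0.31 ± 0.31) and Pdia6 (0.17 ± 0.28), and Dnajc3, a BiP co-chaperone also known as P58IPK (0.11 ± 0.16). Both other probe sets of Calr gave 0.58. Hsp90b1, the ER form of HSP90, stood at 0.00 ± 0.25, and at 0.23 with its other probe set. The signal of its brightest probe set was 12054 ± 1850 (SD, n = 3) in induced and 12224 ± 3029 (SD, n = 3) in uninduced cells. For Hsp90b1, Pdia4, Pdia6, Calr and Manf the array numbered 1 was the lowest of its group in both groups, so most of their spread lay between replicate numbers. The membrane-bound lectin chaperone Canx stood at -0.09 ± 0.15. Its other probe sets gave -0.29 and 0.30, and those of Dnajc3 ran from -0.28 to 0.60, so no direction is given for either.

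Dnajb9 went against the rest of its group. It encodes ERdj4, a J-domain protein that brings BiP to IRE1 and helps degrade misfolded proteins, and it is a known target of XBP1. Its signals were 1004, 1048 and 1208 in induced and 1790, 3784 and 3617 in uninduced replicates 1, 2 and 3. Every induced array was lower than every uninduced one, with uninduced replicate 1 the closest of its group to them. The log2 fold change of -1.41 ± 0.31 was the largest in size of the 33 genes (adjusted p of 0.132 in limma). The difference was -0.82 in the arrays numbered 1, -1.84 in those numbered 2 and -1.57 in those numbered 3.

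**Figure D2:**
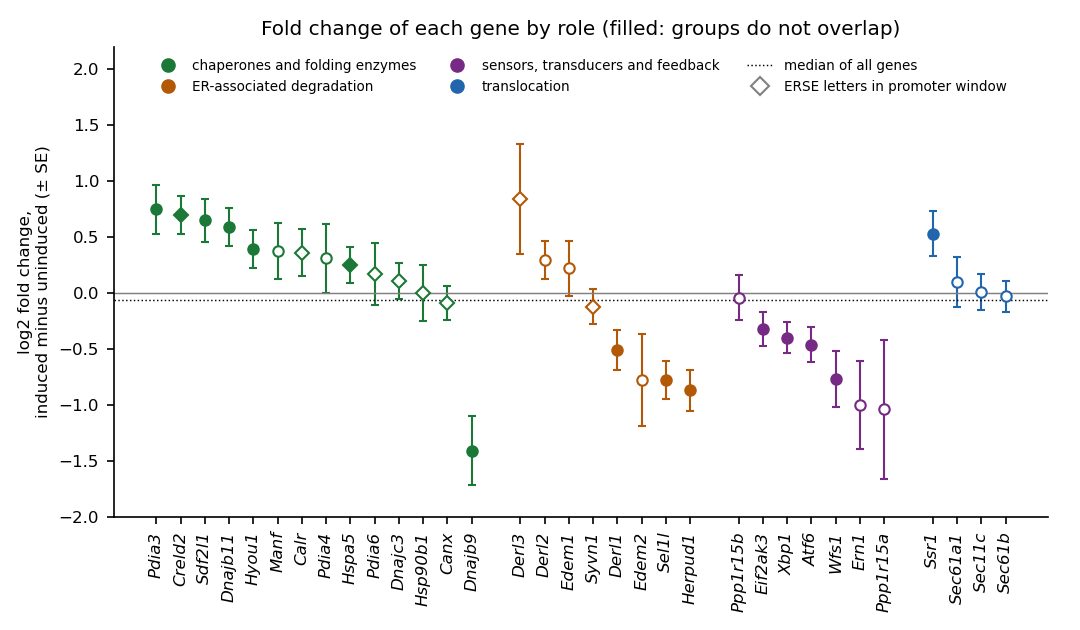
Log2 fold change, induced minus uninduced, with its SE (y axis) for each of the 33 genes, ordered by value within its role (x axis); filled marks are genes whose groups do not overlap, diamonds are genes with ERSE letters in the promoter window, and the dotted line is the median of all genes (-0.06). Dnajb9, at -1.41, lies apart from the other 13 chaperones and folding enzymes, which run from -0.09 to 0.75.

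In ER-associated degradation, 3 of 8 genes (37.5%) stood lower on every induced array. This compares with 13.4% of all genes and 18.0% of those at or above the median level. The 3 were Herpud1, Sel1l and Derl1, of the ubiquitin ligase complex around HRD1, whereas Syvn1 (HRD1 itself), Derl2 and Derl3 overlapped. Herpud1, a membrane protein that joins this complex, had signals of 1428, 1904 and 1502 in induced and 3213, 2885 and 2752 in uninduced cells. The groups were well apart, and the log2 fold change of -0.87 ± 0.18 had the smallest adjusted p of the 33 genes (0.116 in limma). With genes under the probe set median left out it passed, at an adjusted p of 0.0453 in limma, as did Sel1l (0.0460). That filter called 342 of 10693 genes in all, 198 of them lower. The second probe set of Herpud1 gave -0.47. Sel1l, the scaffold that links HRD1 to its substrates, had signals of 1130, 936 and 1010 against 1573, 1901 and 1856. It stood at -0.78 ± 0.17, with all induced arrays lower, and its 4 other probe sets gave from -0.83 to -0.20. Derl1, a channel-like protein of the same complex, was the steadiest across replicate numbers. Its differences were -0.51, -0.52 and -0.52 in the arrays numbered 1, 2 and 3, with a log2 fold change of -0.51 ± 0.18. Its 3 other probe sets gave from -0.76 to -0.19.

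Syvn1, which encodes the ligase HRD1 itself, stood at -0.12 ± 0.16, with signals of 974 ± 90.8 (SD, n = 3) in induced and 1060 ± 86.9 (SD, n = 3) in uninduced cells. Edem2, a lectin-like protein that starts the trimming of mannose on misfolded glycoproteins, had signals of 765, 1210 and 1228 against 979, 2390 and 2510. The groups overlapped through uninduced replicate 1, although the induced array was lower under each replicate number (-0.35, -0.97 and -1.02). Edem1, of the same family, stood at 0.22 ± 0.25 with its brightest probe set and at -0.59 with the other, so its direction is not settled. Derl2 likewise stood at 0.30 ± 0.17 with one probe set and -0.29 with the other. Derl3, another derlin, stood at 0.84 ± 0.49. Its uninduced signals of 92.5, 53.5 and 12.2 averaged 5.90 on the log2 scale. This is under the value at the 90th percentile for the unexpected genes (5.95), and the part of background in its difference was not tested.

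Every gene of the sensor and transducer group had a negative log2 fold change. Xbp1, the transcription factor downstream of IRE1, had signals of 8525, 9184 and 8920 in induced and 12427, 11441 and 11410 in uninduced cells. The spread within each group was small and the groups were apart, at -0.40 ± 0.14 (adjusted p of 0.235 in limma). The 3 other probe sets gave from -0.47 to -0.28. These values do not separate the spliced from the unspliced Xbp1 RNA. Ern1, the sensor IRE1, had signals of 501, 984 and 1181 against 1134, 2077 and 2046. Induced replicate 3 lay just above uninduced replicate 1, so the groups overlapped, while the differences within replicate numbers were -1.16, -1.07 and -0.78. The mean signal was 889 ± 350 (SD, n = 3) in induced and 1752 ± 535 (SD, n = 3) in uninduced cells, and its dimmer probe sets gave log2 fold changes from -1.23 to -0.03.

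Atf6, the sensor cut in the Golgi, had signals of 619, 561 and 528 against 717, 826 and 827, with no overlap. It stood at -0.46 ± 0.16, although its other probe sets, of lower signal, gave -0.18 and 0.37. Eif2ak3, which encodes PERK, was apart as well, with signals of 650, 678 and 750 against 835, 936 and 829. Its log2 fold change was -0.32 ± 0.15. Its other probe sets, both under the probe set median, gave -0.23 and 0.17. Wfs1, an ER membrane protein that restrains ATF6, stood at -0.77 ± 0.25, with signals of 57.5, 77.8 and 38.1 against 129, 89.7 and 106. Its groups did not overlap, but these are low signals, with an induced mean of 6.17 on the log2 scale.

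Both feedback genes act on the PERK arm. Ppp1r15a (GADD34), the stress-induced subunit that directs a phosphatase to eIF2-alpha, had signals of 1935, 700 and 564 in induced and 4034, 1305 and 1312 in uninduced cells. Both arrays numbered 1 were high, and the groups overlapped because induced replicate 1 lay above uninduced replicates 2 and 3. Within replicate numbers the induced array was always lower, by similar amounts (-1.05, -0.88 and -1.20), and the log2 fold change was -1.04 ± 0.62. It was -0.51 without uninduced replicate 1 and -1.58 without induced replicate 1. Ppp1r15b, the constitutive subunit with the same function, stood at -0.04 ± 0.20.

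Of the 4 translocation genes only Ssr1 had groups that did not overlap, beside 10.7% of all genes apart higher and 13.4% apart lower. Among genes at or above the median level these shares were 15.1% and 18.0%. Ssr1, a subunit of the translocon-associated protein complex, had signals of 6175, 9257 and 7574 in induced and 4845, 5380 and 5515 in uninduced cells, with a log2 fold change of 0.53 ± 0.20. Of its 3 other probe sets 2 gave positive values and the dimmest gave -0.78. The translocation channel genes Sec61a1 and Sec61b stood at 0.10 ± 0.22 and -0.03 ± 0.14. Sec11c, a catalytic subunit of the signal peptidase, stood at 0.01 ± 0.16. Sec61b had signals of 15556 ± 760 (SD, n = 3) in induced and 15931 ± 569 (SD, n = 3) in uninduced cells.

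Averaged over their members, the roles separated to different degrees. The sensor and transducer genes averaged 9.94, 9.98 and 9.89 on induced and 10.59, 10.48 and 10.48 on uninduced arrays. This gap of -0.58 was large beside the spread of the mean between replicates (SD 0.05 induced and 0.07 uninduced). Single genes spread more, and in the mean their deviations partly cancelled. On the arrays numbered 1 Ern1 (SD 0.64 induced and 0.49 uninduced) was low and Ppp1r15a (SD 0.94 and 0.93) high. Both of these genes overlapped between the groups. The chaperones and folding enzymes averaged 11.90, 12.22 and 12.28 against 11.71, 12.03 and 11.97. Their difference of 0.23 was near the spread within a group (SD 0.21 and 0.17), and the 2 groups overlapped. It was 0.13 without uninduced replicate 1, 0.15 without induced replicate 3 and 0.34 without induced replicate 1. Within replicate numbers the chaperone difference was positive each time (0.19, 0.19 and 0.31). ER-associated degradation averaged 10.13 to 10.21 on induced and 10.29 to 10.44 on uninduced arrays. The roles were set by name, with earlier results of these data known, so these means are given as descriptions.

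**Figure D3:**
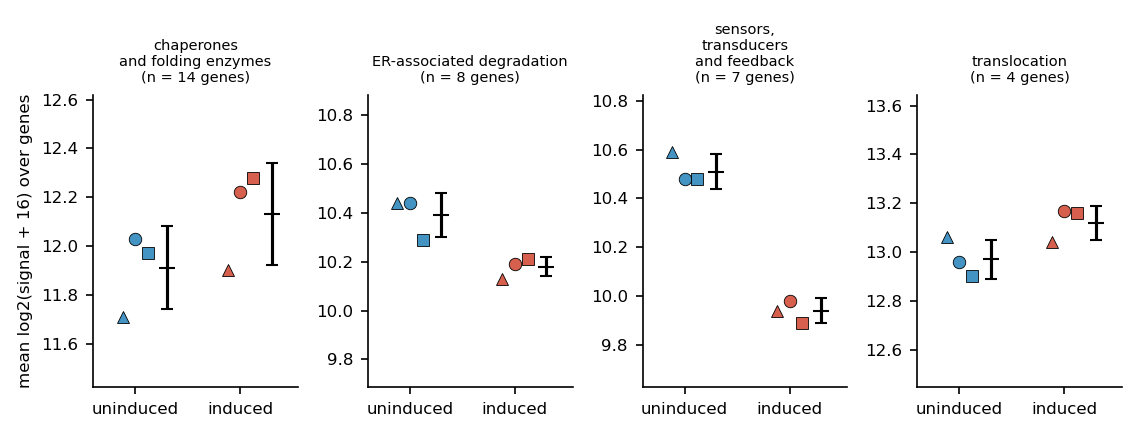
Mean log2(signal + 16) over the genes of each role (y axis) on each uninduced (blue) and induced (red) array, with triangles, circles and squares for replicates 1, 2 and 3 and bars for the mean ± SD of 3 arrays; each y axis spans 1.2 units. The sensor and transducer means are 9.89 to 9.98 on induced and 10.48 to 10.59 on uninduced arrays, and the chaperone means overlap.

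The members with and without the ERSE letters shown above were set side by side. Of the 9 members with ERSE letters 7 had a log2 fold change above 0, counting Hsp90b1 at 0.00 (median 0.17, from -0.12 for Syvn1 to 0.84 for Derl3). The 17 members with a window and without ERSE letters had a median of -0.32, with 7 above 0. Among the 11 other measured genes that hold ERSE letters 3 were above 0 (median -0.08, from -1.21 to 0.49). These 11 were taken without a filter on level, and whether these cells express them was not tested. All members with ERSE letters except Derl3 and Syvn1 were chaperones or folding enzymes, and no sensor gene with a window held them. Motif and role therefore cannot be told apart in these medians. Among the chaperones and folding enzymes, members with ERSE letters ran from -0.09 (Canx) to 0.70 (Creld2). The others with a window stood at 0.75 (Pdia3), 0.65 (Sdf2l1), 0.59 (Dnajb11), 0.31 (Pdia4) and -1.41 (Dnajb9). Both ends of the range thus lay outside the ERSE group. Pdia3, Sdf2l1, Pdia4 and Dnajb9 held no exact match of the motifs searched. Only exact matches were counted. The windows of Pdia3 and Herpud1, for example, hold the ERSE letters except for the last base. The ERSE-II holders stood at 0.59 (Dnajb11) and -0.87 (Herpud1). No test was made of motif against fold change.

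The arrays numbered 1 set part of these results. In the chaperones and folding enzymes that stood higher, the difference was often smaller in the arrays numbered 1, such as 0.33 for Pdia3 against 0.95 and 0.98 in those numbered 2 and 3. Without uninduced replicate 1, 2 of the 33 genes passed the threshold in limma, Dnajb9 (-1.76 ± 0.15, adjusted p of 0.0133) and Sel1l (-0.87 ± 0.15, adjusted p of 0.0378). In that comparison 3.22% of all genes were called higher and 4.77% lower. Without both arrays numbered 1, 6 of 33 passed. Pdia3 (0.96 ± 0.12, adjusted p of 0.0419) and Dnajb11 (0.75 ± 0.11, adjusted p of 0.0484) were higher, against 2.88% of all genes. Dnajb9 (-1.70 ± 0.13), Edem2 (adjusted p of 0.0403), Sel1l (-0.94 ± 0.12) and Ppp1r15a (-1.04 ± 0.16) were lower, against 5.24% of all genes, with adjusted p from 0.0347 to 0.0497 in limma. Only 2 arrays per group remain there. Under every replicate number the induced array was higher in 13 members (39.4%, against 18.6% of all genes) and lower in 11 (33.3%, against 24.8%). These shares are over all genes, whereas all 33 members lay at or above the median level.

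**Figure D4:**
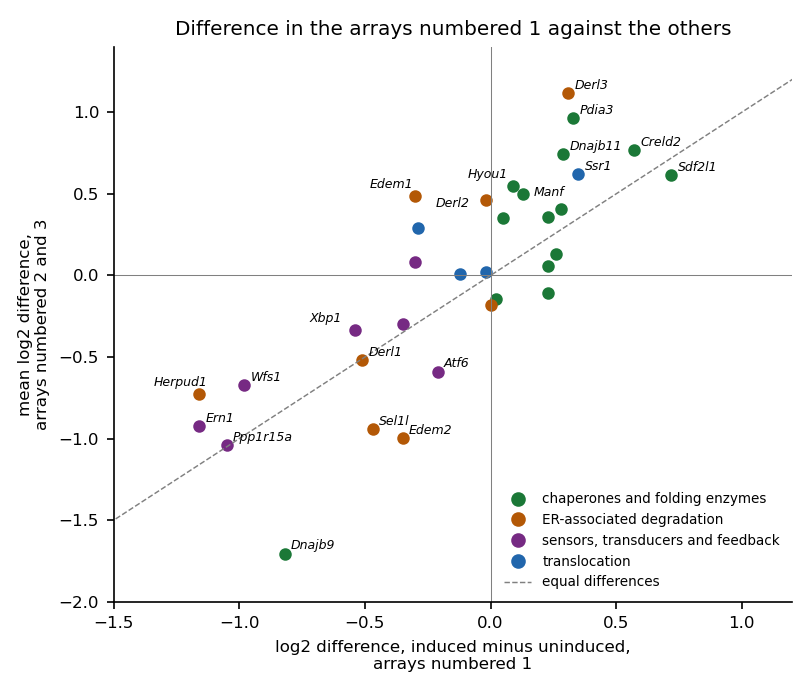
Difference of log2(signal + 16), induced minus uninduced, in the arrays numbered 1 (x axis) and its mean in those numbered 2 and 3 (y axis) for the 33 genes, coloured by role; the dashed line marks equal differences. Derl1 and Ppp1r15a lie on the line, while Dnajb9, at -0.82 in the arrays numbered 1, and Pdia3, at 0.33, lie farther from 0 in the others.

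The wider secretory pathway was described with 127 other measured genes in 5 lists, of which 0 passed the threshold in limma, with 9 higher (7.09%, against 7.14% of all genes) and 19 lower (15.0%, against 10.3%) at an unadjusted p under 0.05. Their median log2 fold change was -0.06, the same as over all genes. Other folding enzymes had a median of -0.16 over 35 genes, with 14 above 0 and 21 below, unlike the member chaperones and folding enzymes. Ero1a, the oxidase that recharges disulfide isomerases, had levels of 11.06, 11.94 and 11.92 in induced and 13.00, 13.96 and 13.82 in uninduced cells, a log2 fold change of -1.95 ± 0.36. Sil1, a nucleotide exchange factor of BiP, stood at -1.07 ± 0.28 and P3h1, a prolyl hydroxylase of collagen, at -0.72 ± 0.19, both with no overlap. Prdx4 stood at -1.15 ± 0.40, but no array exceeded 5.84, which is under that 90th percentile.

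The other genes of ER-associated degradation had a median of -0.03 over 31 genes. The lectin gene Erlec1 stood at -0.80 ± 0.15 and Fam8a1, of the HRD1 complex, at -0.72 ± 0.21, whereas Vcp, the ATPase that pulls proteins from the ER membrane, stood at 0.66 ± 0.15 and Ubxn8 at 0.74 ± 0.15. All 4 had groups that did not overlap. The translocon and signal recognition list had a median of 0.02 over 23 genes, with Get4, a factor for tail-anchored proteins, at 0.73 ± 0.16, Srp19 at 0.53 ± 0.23, Ssr3 at -0.42 ± 0.19 and Sec62 at -0.56 ± 0.20. For the 12 oligosaccharyltransferase genes the median was 0.06, with Krtcap2 at -0.58 ± 0.17, Tusc3 at -0.50 ± 0.25, Tmem258 at -0.40 ± 0.15 and Stt3b at -0.30 ± 0.17.

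Stress transcription factors and related genes had a median of -0.27, with 7 of 26 above 0. Ddit3, which encodes CHOP and lies downstream of PERK, had levels of 8.68, 9.38 and 8.43 in induced and 11.26, 10.87 and 11.07 in uninduced cells. Every induced array was lower, at -2.24 ± 0.28 (adjusted p of 0.0606 in limma). Atf5 stood at -1.86 ± 0.35 and Cebpb at -1.01 ± 0.20, both without overlap. Eif2ak2, the interferon-inducible eIF2-alpha kinase PKR, stood on the other side, with levels of 10.12, 10.51 and 10.27 against 9.36, 9.29 and 9.11 and a log2 fold change of 1.05 ± 0.18.

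**Figure D5:**
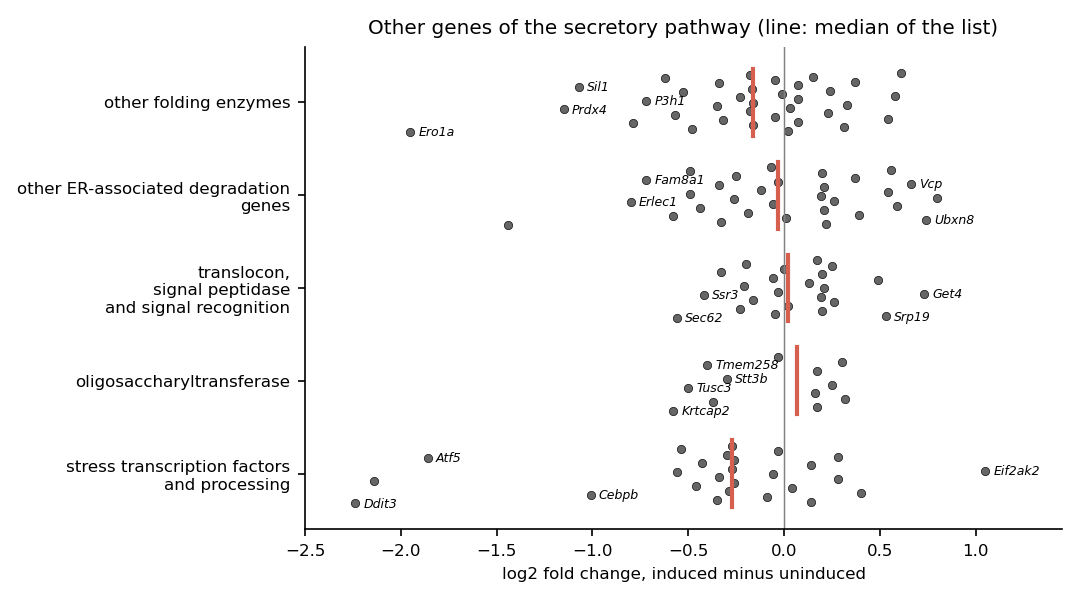
Log2 fold change, induced minus uninduced (x axis), of 127 other measured genes of the secretory pathway in 5 lists (y axis); each point is a gene, its height within a list is only spacing, red lines are list medians, and the 4 genes with the smallest p in each list are named. The medians run from -0.27 for the stress transcription factors to 0.06 for the oligosaccharyltransferase genes.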

How the data were processed

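RNA of 6 Ba/F3 cultures was measured on 6 Affymetrix arrays. The deposited values are signal intensities, made with Affymetrix Expression Console 1.4.1 per the submitters' processing notes, by a summary method that those notes do not name. Once 2% of values at either end were dropped, every array averaged 500.0. Control probe sets (64) were removed. Of the other 45037 probe sets 34945 carried exactly 1 gene symbol, and the brightest per gene, by mean log2(signal + 16), gave 18193 genes. No further normalization was applied.

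Groups were compared with limma 3.58.1 in R 4.3.3, by a two-sided moderated test from lmFit and eBayes with 4 residual degrees of freedom. The p-values were adjusted by Benjamini-Hochberg across the 18193 genes, with a threshold of 0.05. The fit was tried on simulated data with known changes and independent noise, without an array effect. That trial checked the sign and mean size of the known changes, not the rate of false calls. The labels call the cultures a triplicate without naming separate experiments, so the p-values cover the spread of these cultures alone, which may be technical, and 6 arrays limit the precision. Deviations of same-numbered arrays from their group means correlated at 0.30, 0.15 and 0.22 for numbers 1, 2 and 3, but those of unlike numbers 2 and 3 did so too (0.20 and 0.13). The numbers come from the sample titles, and every same-number correlation was over 0.1. The reported fit is unpaired, and the replicate number entered as a block only as an alternative.

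The members and lists were chosen with earlier results of these data known. The text names every member, and of each wider list the 4 genes with the smallest p. Alternatives included blocking on replicate number, quantile normalization, centring on array medians, a filter at the median level, averaging all probe sets per gene, trended and robust variance, pseudocounts of 1 and 64, and leaving out arrays. Protein sequences were not used here. Figures were drawn with matplotlib 3.10.9.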

Additional observations from a re-analysis of the deposited data

How the results depend on the processing

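Over 15 alternatives the log2 fold changes of 26 of the 33 members kept their sign. The replicate block, the filter at the median level and the trended variance leave fold changes as they are. Only the other alternatives could change a sign. Hsp90b1, at 0.00, gave -0.02 with quantile normalization, -0.22 to 0.13 with single arrays left out (-0.22 without uninduced replicate 1) and -0.11 with both arrays numbered 1 left out. Edem1 gave -0.18 with the mean of its probe sets. Ppp1r15b gave 0.02 with arrays centred on their medians, -0.17 to 0.13 with single arrays left out and 0.09 with both arrays numbered 1 left out. Sec61b gave 0.03 with centring and 0.01 without both arrays numbered 1. Sec11c gave -0.03 with quantile normalization and from -0.07 to 0.08 with single arrays left out, Pdia6 -0.06 to 0.36 and Sec61a1 -0.03 to 0.30.

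The count of members past the threshold was 0 in the comparison as reported. It was 2 with the filter at the median level (Herpud1 and Sel1l), beside 342 of the 10693 genes kept. With a pseudocount of 64 it was 2 (the same pair), beside 255 of 18193 genes. With trended and robust variance it was 4 (Herpud1, Dnajb9, Sel1l and Creld2), beside 550 of 18193 genes. It was 0 to 2 with single arrays left out, beside 0 to 1453 of 18193 genes. Without both arrays numbered 1 it was 6, beside 1477 of 18193 genes. The replicate block gave 0 members (13 at an unadjusted p under 0.05 in limma) and 0 genes of all (3269 unadjusted), in place of 34, and changed no call of a member. With a pseudocount of 1 the count over all genes was also 0 in limma (2807 unadjusted). Of the wider lists 9, 10 and 7 genes passed with the filter, the trended variance and the pseudocount of 64, 0 to 15 with single arrays left out, and 16 without both arrays numbered 1.

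The mean difference of the sensor and transducer genes was -0.51 with centring, -0.44 with the mean of probe sets and -0.52 with a pseudocount of 64, in place of -0.58. That of the translocation genes was 0.07 with the mean of probe sets and 0.24 without both arrays numbered 1, in place of 0.15. That of the chaperones and folding enzymes, 0.23, was 0.13 to 0.34 with single arrays left out. The cause of these shifts was not tested.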
